A study of Bos taurus with 2 samples.

Results

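Undifferentiated spermatogonia are the germ cells at the base of the seminiferous tubule that include the stem cells of sperm production. The 10 genes described here, GFRA1, RET, ZBTB16, UCHL1, ETV5, SALL4, LIN28B, UTF1, LHX1 and TSPAN33, are used as markers or regulators of these cells. They were taken by symbol from tables of 24616 genes, and each symbol matched 1 row in both tables. RNA was sequenced from pieces of seminiferous tubule of Bos taurus calves, 1 aged 3 months and 1 aged 9 months, with 1 library per age. The labels give age and tissue and name no treatment, strain or genotype. No difference below therefore has a replicate check, no p-value is given, and each value compares these libraries and not the ages in general.

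In the testis, Sertoli cells release the growth factor GDNF, which binds the co-receptor GFRA1 on spermatogonia and thereby activates the receptor tyrosine kinase RET. In rodents this signal maintains stem cells and raises transcription factor genes such as ETV5 and LHX1. ZBTB16, SALL4, UTF1 and LIN28B act inside the same cells, at chromatin or on RNA, while UCHL1 and TSPAN33 serve mainly as markers of them. As spermatogonia differentiate they begin to express KIT and STRA8, and meiosis and spermatid formation follow.

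Total counts were 37600534 at 3 months and 29782234 at 9 months. Levels are given as CPM, the count relative to a library size adjusted with TMM (trimmed mean of M values), on which 1 count was worth 0.0311 CPM at 3 months and 0.0287 CPM at 9 months. A gene at 0 counts may hold up to 3 counts' worth, 0.0933 CPM at 3 months and 0.0861 CPM at 9 months. Every ratio divides the 9-month by the 3-month value and is given with a 95% exact interval in brackets that covers counting error only. A gene counts as higher or lower at 9 months where the ratio reached 2-fold and its interval left out 1. The tissue label was checked against markers. Sertoli cell markers were abundant at both ages, with a summed level over 11 genes of 8834 and 2263 CPM, and none was at 0 counts. Leydig cells lie outside the tubules, and the summed level of 6 of their markers was 17511 and 2741 CPM, with none at 0 counts. The summed level of 10 spermatid genes was 1.62 CPM at 3 months and 2774 CPM at 9 months, and that of 12 meiotic genes 41.4 and 1299 CPM. The Sertoli and Leydig sums were thus lower, and the spermatid and meiotic sums higher, at 9 months. The part of these cell types in the results below was not tested. In such bulk tissue, fewer cells of a type and less RNA per cell cannot be told apart.

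All 10 genes were detected in both libraries, and 9 of the 10 had a ratio above 1. By the size rule LIN28B, LHX1, SALL4, UTF1 and ZBTB16 were higher at 9 months, TSPAN33 was lower, and GFRA1, RET, UCHL1 and ETV5 were within 2-fold. Of all 18025 genes with at least 10 counts, 28.0% were higher and 22.8% lower by the same rule. The median log2 ratio was 0.98 for the 10 genes and 0.02 for all measured genes. Their summed level was 109.8 CPM at 3 months and 122 CPM at 9 months, a ratio of 1.11 [1.07 to 1.17]. Without TSPAN33 the other 9 genes together stood at 57.3 and 112 CPM, a ratio of 1.95 [1.84 to 2.06]. The number of calls depended on the scaling of the libraries. With plain library totals, which shift all log2 ratios up by 0.45, 8 genes were higher and 1 lower, against 36.2% and 14.7% of all measured genes. With scaling to 14 reference genes, a shift of 0.68, 9 were higher and 1 lower, against 41.2% and 11.6%. With upper-quartile scaling, a shift of -0.10, 5 were higher and 1 lower, against 26.4% and 24.9%.

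**Figure D1:**
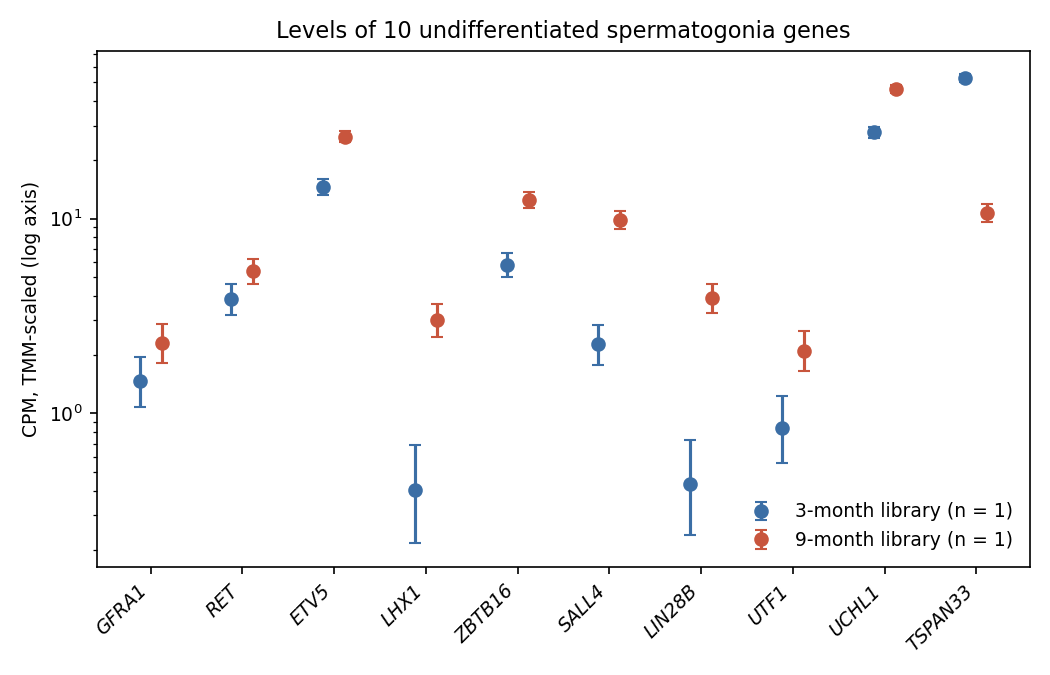
Level of each of the 10 genes in CPM (log axis) in the 3-month library (blue) and the 9-month library (red), 1 library each. Bars are 95% exact Poisson intervals and cover counting error only. TSPAN33 alone lies lower at 9 months, at 10.7 against 52.5 CPM.

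The receptor pair of GDNF signalling was scarce at both ages. GFRA1 (ENSBTAG00000019297), the co-receptor that binds GDNF, had 47 counts at 3 months and 80 at 9 months, which are 1.46 and 2.30 CPM. The ratio was 1.57 [1.08 to 2.30], so that the difference was smaller than the 2-fold rule asks. RET (ENSBTAG00000000570), the kinase that carries the signal into the cell, had 124 and 187 counts, or 3.86 and 5.37 CPM. Its ratio of 1.39 [1.10 to 1.76] was the closest to 1 of the 10. The count of GFRA1 was 0.379 of that of RET at 3 months and 0.428 at 9 months, and the change of this quotient, 1.13-fold [0.723 to 1.77], was not distinguishable from none at this depth. Both genes crossed 2-fold with reference gene scaling, at 2.51 and 2.22, and with plain totals GFRA1 stood at 2.15 and RET at 1.90. In the RefSeq gene table of assembly ARS-UCD2.0, which is not the build of the counts, RET overlaps CSGALNACT2, an enzyme gene of chondroitin sulfate synthesis with 412 and 494 counts. Whether counting used strand is not given in the sources used here, so reads of the overlap cannot be assigned to either gene.

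The transcription factor genes ETV5 and LHX1, both raised by GDNF in rodent spermatogonia, differed in level and in ratio. ETV5 (ENSBTAG00000014915), an ETS factor, had 467 counts at 3 months and 918 at 9 months, or 14.5 and 26.4 CPM, with a ratio of 1.81 [1.62 to 2.03]. LHX1 (ENSBTAG00000033562), a LIM homeobox factor, had 13 and 105 counts, or 0.404 and 3.01 CPM, and was 7.45-fold higher [4.17 to 14.5]. The low 3-month count sets the width of this interval. The quotient of ETV5 to LHX1 counts went from 35.9 to 8.74, a ratio of 0.243 [0.124 to 0.441] that does not depend on how the libraries are scaled. ETV5 is also expressed by Sertoli cells in other mammals. Of 11 Sertoli cell markers 6 were lower and 3 higher, against 22.8% and 28.0% of all measured genes.

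ZBTB16, SALL4 and UTF1 act in the nucleus too, and their ratios lay between 2.15 and 4.34. ZBTB16 (ENSBTAG00000011266), the zinc finger repressor also called PLZF, which is needed for stem cell self-renewal in mice, had 186 counts at 3 months and 433 at 9 months. These are 5.79 and 12.4 CPM, a ratio of 2.15 [1.80 to 2.56]. It lay at the edge of the rule, since upper-quartile scaling gave 2.001. SALL4 (ENSBTAG00000003101), a zinc finger factor of pluripotent and germ cells, had 73 and 343 counts, or 2.27 and 9.85 CPM. It was 4.34-fold higher [3.36 to 5.66], and the other scalings of the whole library placed it between 4.04 and 6.93. UTF1 (ENSBTAG00000024999), a chromatin protein of pluripotent cells and early spermatogonia, had 27 and 73 counts, or 0.840 and 2.10 CPM, a ratio of 2.49 [1.58 to 4.04]. The RefSeq table of ARS-UCD2.0 lists UTF1 as overlapping SORCS3, a sorting receptor gene. SORCS3 had 53 and 1118 counts and was 19.5-fold higher [14.8 to 26.2], and its part in the UTF1 count was not tested.

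LIN28B (ENSBTAG00000043973) encodes an RNA-binding protein that blocks maturation of the let-7 microRNAs and marks early germ cells. It had 14 counts at 3 months and 136 at 9 months, or 0.436 and 3.90 CPM. Its ratio of 8.96 [5.16 to 16.8] was the highest of the 10 and exceeded that of 89.3% of all measured genes. Its deposited gene length was 546 bases, the shortest of the 10.

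UCHL1 and TSPAN33, the genes used mainly as markers, lay on opposite sides of a ratio of 1. UCHL1 (ENSBTAG00000005078), a ubiquitin hydrolase also known as PGP9.5 and a common stain for bovine spermatogonia and for nerves, had 892 counts at 3 months and 1615 at 9 months. These are 27.7 and 46.4 CPM, a ratio of 1.67 [1.54 to 1.82] that was within 2-fold by TMM and 2.29 with plain totals. Of 8 measured nerve and Schwann cell markers 3 were higher, 1 lower and 4 under 2-fold, against 28.0% higher and 22.8% lower of all measured genes. Summed levels over 10 such markers were 427 and 261 CPM. Of these sums S100B, the lower gene, made up 384 and 91.9 CPM, and TUBB3, 1 of the higher genes, 34.7 and 154 CPM. The part of nerve and Schwann cells in the UCHL1 value was not tested.

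TSPAN33 (ENSBTAG00000007253) encodes a tetraspanin of the cell surface, of the subgroup that escorts the protease ADAM10, and it is also expressed by B cells and red blood cell precursors. It had 1687 counts at 3 months and 372 at 9 months, or 52.5 and 10.7 CPM. It was 4.91-fold lower [4.39 to 5.51] by TMM and between 3.07-fold and 5.28-fold lower under the other scalings of the whole library. Only 5.65% of measured genes had a lower log2 ratio. Of 4 measured B cell markers 3 were higher, against 28.0% of all measured genes, and 1 was within 2-fold. Summed levels over 5 B cell markers were only 4.54 and 14.4 CPM. Markers of the red blood cell line were near the floor, with summed levels of 2.40 and 1.38 CPM over 4 genes. Of these, HBB and ALAS2 were at 0 counts at 9 months. Lower by the size rule were 5 of 6 Leydig, 6 of 11 Sertoli and 4 of 5 endothelial cell markers. The same held for 2 of 6 leukocyte and 1 of 5 peritubular myoid markers, against 22.8% of all measured genes. The part of any of these cell types, B cells and the red blood cell line included, in the TSPAN33 value was not tested.

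**Figure D2:**
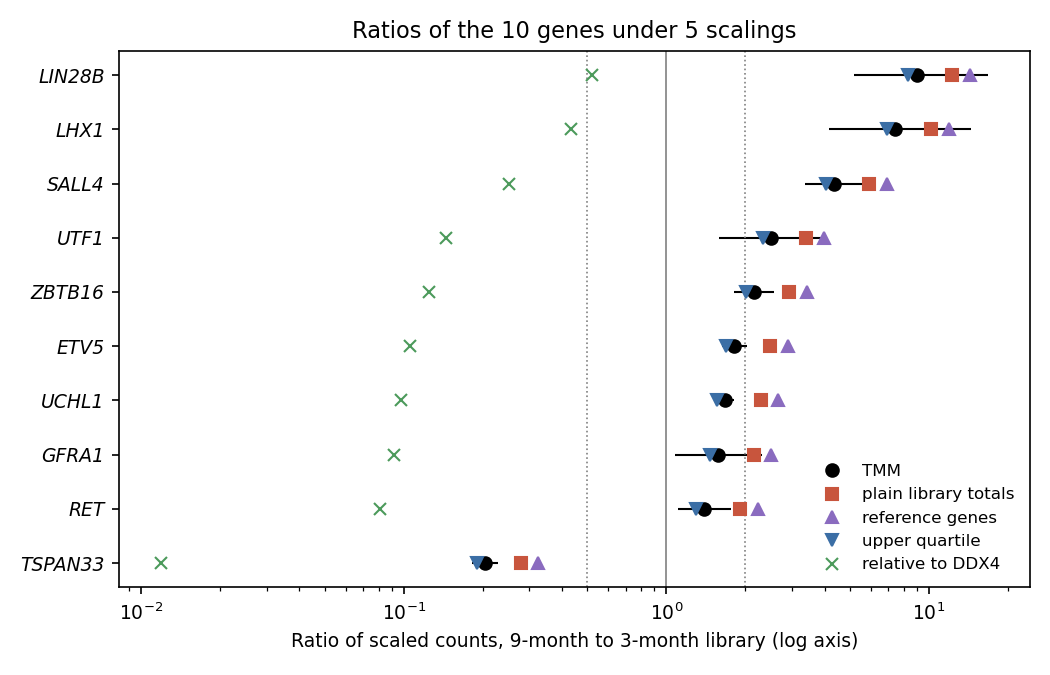
Ratio of scaled counts, 9-month to 3-month library (log axis), of each of the 10 genes under TMM (black, with its 95% counting interval), plain library totals, 14 reference genes, the upper quartile, and relative to the single gene DDX4. Dotted lines mark 2-fold in each direction. Relative to DDX4 all 10 genes lie below 1, and under the other 4 scalings only TSPAN33 does.

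Levels of different genes were compared only per kilobase of deposited gene length, in CPM per kilobase. At 3 months TSPAN33 and UCHL1 led at 25.9 and 24.5, and their counting intervals overlapped. ETV5 at 3.62 and ZBTB16 at 2.41 followed, each separated from its neighbours. UTF1, RET, LIN28B, SALL4 and GFRA1 lay between 1.09 and 0.488, with overlapping intervals at each step, and LHX1 was lowest at 0.190. At 9 months UCHL1 stood alone at 40.9. LIN28B at 7.15 and ETV5 at 6.57 overlapped, as did TSPAN33 at 5.27 and ZBTB16 at 5.17, SALL4 at 2.91 and UTF1 at 2.73, and RET at 1.52 and LHX1 at 1.42. GFRA1 was lowest, at 0.767 CPM per kilobase, and only 13.6% of measured genes had a lower value in that library. LIN28B thus went from rank 7 to rank 2 of the 10, a place that rests on its short gene length, since by counts alone it was 9th and 7th. TSPAN33 went from rank 1 to rank 4.

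Quotients between genes of the same library are free of the scaling. Of 45 gene pairs, 32 changed their count quotient between the libraries with an interval that excluded 1. All 9 pairs with TSPAN33 were among these 32, each in favour of the other gene at 9 months, since its ratio alone lay below 1. They ran from 6.84-fold [5.27 to 8.89] for RET to 44.1-fold [25.0 to 83.5] for LIN28B. The share that changed among pairs of all measured genes was not computed, so 32 of 45 has no background to be set against. Of the 36 pairs without TSPAN33, 23 changed by this measure, and the intervals of 13 included 1. The quotients of GFRA1 to RET, ZBTB16, UCHL1, ETV5 and UTF1 had intervals that included 1. Those to the other 3 genes were lower at 9 months, against SALL4 at 0.362 [0.229 to 0.578], LHX1 at 0.211 [0.0983 to 0.431], and LIN28B at 0.175 [0.0841 to 0.350]. The interval for LIN28B to LHX1 included 1, at 1.20 [0.497 to 2.89]. The 45 intervals are not adjusted for their number, and some exclude 1 narrowly, such as SALL4 to UTF1 at 1.74 [1.0007 to 2.96].

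**Figure D3:**
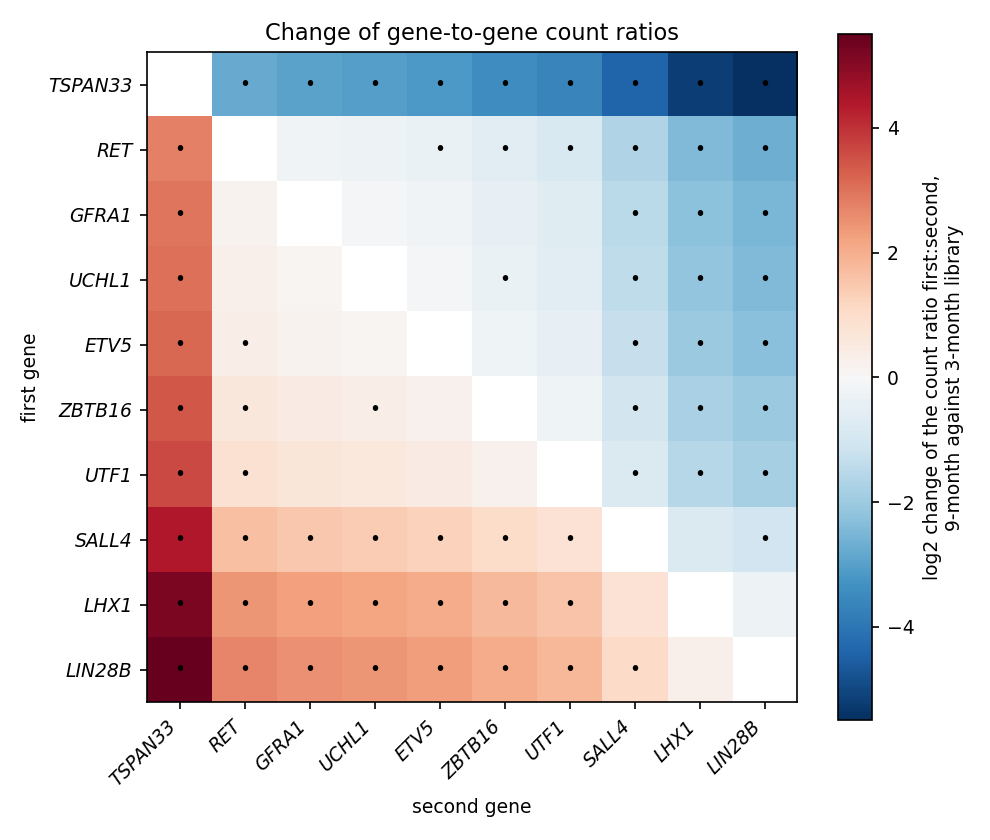
Change between the libraries of the count quotient of each pair of genes, as the log2 ratio of the 9-month to the 3-month quotient of first to second gene (red, higher at 9 months; blue, lower). Dots mark the pairs whose 95% counting interval excludes no change, 32 of 45, and include all 9 pairs with TSPAN33.

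Genes shared by germ cells of many stages had larger ratios at the median than these 10. DDX4, an RNA helicase of germ cells from gonocytes to spermatids, had 755 counts at 3 months and 14073 at 9 months and was 17.2-fold higher [16.0 to 18.5]. DAZL, an RNA-binding protein of germ cells, was 10.7-fold higher [9.99 to 11.4]. All 8 pan germ cell genes were higher, against 28.0% of all measured genes, and the median log2 ratio of the 8 was 3.76. For every 100 counts of DDX4 there were 118 of UCHL1, 61.9 of ETV5, 24.6 of ZBTB16 and 6.23 of GFRA1 at 3 months. At 9 months there were 11.5, 6.52, 3.08 and 0.568. Relative to DDX4 all 10 genes were thus lower at 9 months, with ratios from 0.0118 for TSPAN33 to 0.521 [0.300 to 0.979] for LIN28B, and 9 of the 10 were at least 2-fold lower. DDX4 is also expressed in spermatocytes and spermatids, so that it does not count spermatogonia.

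A further list held other genes of undifferentiated spermatogonia and gonocytes. Of its 32 symbols 27 were in the tables and 26 were measured. Of the 26, 4 were higher and 8 lower, against 28.0% and 22.8% of all measured genes. The other 14 were called neither way, and the median log2 ratio was -0.50. Among the 14, NANOS2 and NANOG passed 2-fold with intervals that included 1, NANOG at 2.77 [0.691 to 15.9] from 3 and 9 counts. With plain library totals 6 were higher and 6 lower with a median of -0.06, against 36.2% and 14.7% of all measured genes. With reference genes 8 were higher and 4 lower with a median of 0.16, against 41.2% and 11.6%. EPCAM, an adhesion protein of epithelia and spermatogonia, had 70 and 3657 counts and was 48.2-fold higher [38.1 to 62.0]. TSPAN8, another tetraspanin, had 1 count at 3 months and 281 at 9 months, with a ratio of 259 [46.2 to 10278]. ITGA6, an integrin chain also found on somatic cells, was 6.32-fold lower [5.95 to 6.71], and MORC1, which silences transposons in male germ cells, 3.57-fold lower [2.69 to 4.79]. NANOS2, an RNA-binding protein of stem cells, had only 10 and 3 counts, and its ratio of 0.277 [0.0490 to 1.08] left no direction at this depth. ETV4, the close relative of ETV5, stood at 8.68 and 6.23 CPM, a ratio of 0.718 [0.598 to 0.860]. There were 0.597 counts of ETV4 for each of ETV5 at 3 months and 0.236 at 9 months.

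Differentiating spermatogonia were covered by 5 measured genes, with 2 higher, 1 lower and 2 under 2-fold. Among all measured genes 28.0% were higher and 22.8% lower. The median log2 ratio of the 5 was 0.80. The receptor gene KIT stood at 85.8 and 55.8 CPM, a ratio of 0.650 [0.613 to 0.689], and STRA8, which acts at the start of meiosis, at 9.74 and 17.0 CPM, a ratio of 1.75 [1.52 to 2.01]. SOHLH1, a transcription factor of spermatogonia, was 4.53-fold higher [3.68 to 5.62]. The lower gene was CCND2, at 14.1 and 4.71 CPM, a ratio of 0.335 [0.278 to 0.401]. DMRTB1, the other higher gene, had only 5 counts at 3 months and 414 at 9 months, a ratio of 76.4 [32.5 to 237]. What Leydig or other somatic cells contributed to these values, that of KIT included, was not tested. Of 8 proliferation genes 6 were higher and 2 within 2-fold.

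**Figure D4:**
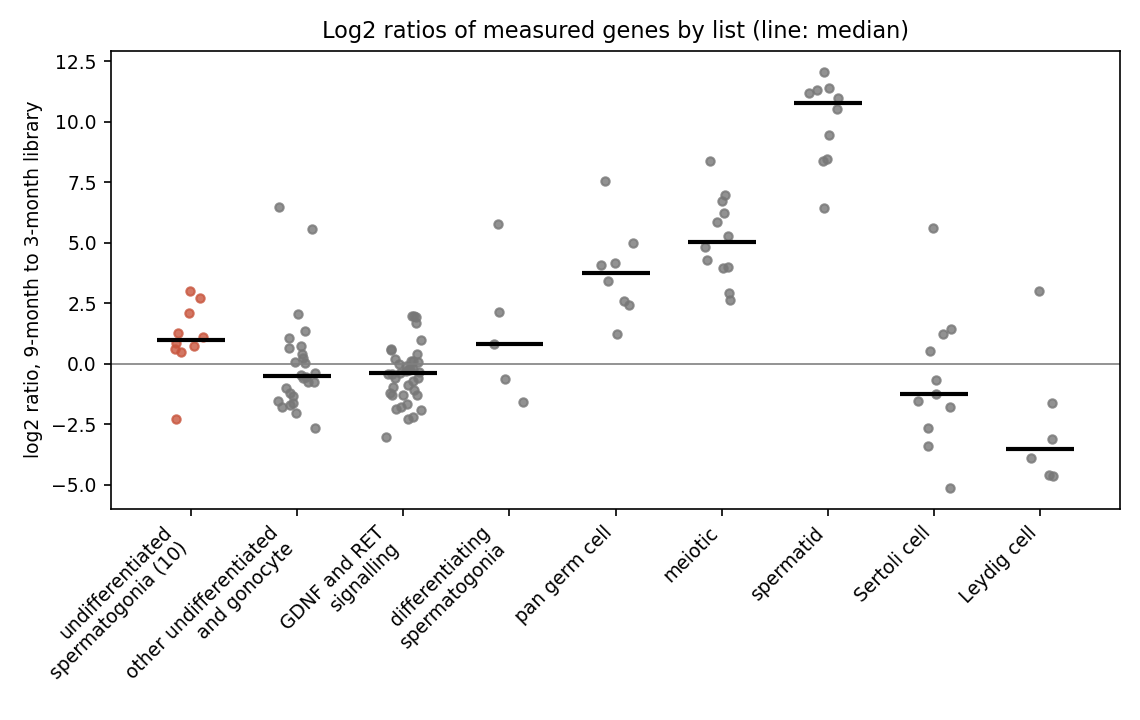
Log2 ratio, 9-month to 3-month library, of each measured gene by list (points, spread sideways for legibility) with the list median (line). The 10 undifferentiated spermatogonia genes (red) have a median of 0.98, between the Leydig cell markers at -3.50 and the spermatid genes at 10.76.

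GDNF and NRTN, ligands of the pathway, were lower at 9 months, while GFRA1 and RET were within 2-fold. GDNF had 76 counts at 3 months and 21 at 9 months, or 2.36 and 0.603 CPM, and was 3.92-fold lower [2.39 to 6.70]. NRTN, a related ligand that acts mainly through GFRA2, had 370 and 87 counts and was 4.61-fold lower [3.64 to 5.89]. With plain totals both were still lower, by 2.87-fold and 3.37-fold. Another ligand gene, ARTN, named after its values were seen, went the other way, with 4 and 23 counts and a 5.31-fold higher level [1.81 to 21.1], and PSPN was at 0 counts in both libraries. There were 1.62 counts of GDNF for each of GFRA1 at 3 months and 0.263 at 9 months, a change of 0.162 [0.0844 to 0.308], and the quotient to RET changed by 0.183 [0.102 to 0.320]. These quotients, chosen after their values were seen, do not depend on the scaling. The co-receptor gene GFRA2 stood at 12.7 and 6.46 CPM, a ratio of 0.510 [0.432 to 0.602]. To complete the family, GFRA3 was 3.95-fold higher [2.85 to 5.57] from 46 counts to 197, and GFRA4 had 39 and 35 counts, a ratio of 0.828 [0.509 to 1.34]. At 3 months GFRA2 stood at 6.19 CPM per kilobase against 0.488 for GFRA1, and at 9 months at 3.16 against 0.767.

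Of 42 listed GDNF and RET signalling genes besides GFRA1 and RET, 39 were measured. Of the 39, 4 were higher, 12 lower and 23 within 2-fold, against 28.0% higher and 22.8% lower of all measured genes. The median log2 ratio of the 39 was -0.38. With plain totals 7 were higher and 7 lower with a median of 0.07, and with reference genes 8 and 7 with a median of 0.30. The shares of all measured genes were 36.2% and 14.7% with plain totals and 41.2% and 11.6% with reference genes. MYCN, a growth-promoting transcription factor that GDNF raises in spermatogonia, was 8.19-fold lower [6.86 to 9.84]. DUSP6, a phosphatase that restrains ERK signalling, was 4.94-fold lower [4.31 to 5.68]. The ERK feedback inhibitors SPRY1, SPRY2 and SPRY4, singled out after their values were seen, were lower by 3.21-fold, 3.74-fold and 2.14-fold, and with plain totals SPRY4 was within 2-fold, at 1.57-fold lower. CBL, a ubiquitin ligase that removes activated receptors including RET, was 3.90-fold higher [3.50 to 4.35]. Many of these genes are expressed in somatic cells as well, and the part of those cells was not tested.

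Structural relatives of the 10 genes were listed as well. Of 22 measured relatives 3 were higher and 6 lower, against 28.0% and 22.8% of all measured genes, and 13 were under 2-fold. With plain totals 5 were higher and 4 lower, against 36.2% and 14.7%, and with reference genes 7 and 4, against 41.2% and 11.6%. The median log2 ratio was -0.37 by TMM, 0.07 with plain totals and 0.29 with reference genes. SALL2 was 4.85-fold lower [3.998 to 5.91] where SALL4 was higher, and its count quotient to SALL4 went from 7.90 to 0.376. LHX9, a gonadal LIM homeobox factor, was 3.97-fold lower [3.63 to 4.35] where LHX1 was higher, with a quotient to LHX1 of 172 and 5.82. These quotients were chosen after their values were seen. In the subgroup of TSPAN33, TSPAN14 was 4.04-fold lower [3.73 to 4.38] and TSPAN15 6.52-fold lower [5.01 to 8.59], and to complete it, TSPAN17 was 2.06-fold lower [1.89 to 2.24] and TSPAN5 2.31-fold higher [2.02 to 2.65], while TSPAN10 had 0 and 5 counts and was not measured. TSPAN17 was within 2-fold with plain totals. There were 1.73 counts of TSPAN14 for each of TSPAN33 at 3 months and 2.10 at 9 months, a change of 1.22-fold [1.06 to 1.40]. ADAM10, the protease they escort, stood at 50.7 and 27.6 CPM, a ratio of 0.543 [0.501 to 0.589].

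Genes listed with the regulators SALL4 and ZBTB16 were mostly within 2-fold. Among all 18025 measured genes 8875 were called neither way, with 28.0% higher and 22.8% lower. Of the 22 measured genes of this list, chiefly of the NuRD and Polycomb chromatin complexes, 17 were within 2-fold, 2 higher and 3 lower. With plain totals the numbers were 14, 6 and 2. The median log2 ratio was -0.13 by TMM, 0.32 with plain totals and 0.54 with reference genes. CUL3, a ubiquitin ligase scaffold that binds ZBTB16, was 4.05-fold higher [3.91 to 4.20], and CHD4, the NuRD remodelling enzyme, 2.09-fold higher [2.03 to 2.16]. The 3 lower genes were DDIT4 at 3.02-fold, SALL2 at 4.85-fold and SALL1 at 2.27-fold. SALL2 and SALL1 are also counted among the structural relatives, and SALL1 was within 2-fold with plain totals. With upper-quartile scaling 1 gene of this list, CUL3, was higher and 4 were lower, against 26.4% and 24.9% of all measured genes, and CHD4 was within 2-fold. Of 16 measured genes of the LIN28 and let-7 axis 5 were higher and 4 lower, against the same 28.0% and 22.8%, and 7 were under 2-fold. The median log2 ratio was 0.15. With plain totals 7 were higher and 2 lower, against 36.2% and 14.7% of all measured genes, with a median of 0.60. HMGA1, a chromatin protein, was 10.1-fold higher [9.24 to 11.0], and IGF2BP1, an RNA-binding let-7 target, 4.07-fold higher [3.34 to 4.99]. MYC, another let-7 target, was 10.01-fold lower [8.48 to 11.9].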

How the data were processed

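RNA from seminiferous tubules of a 3-month and a 9-month calf was sequenced, 1 library each. The submitters' processing notes name Trimmomatic 0.33, STAR 2.4.0 and the build UMD3.1. How reads were counted, on which annotation release and with which strand setting is not given in the sources. The deposited tables have no header. The authors deposited raw counts per gene, a gene length in bases, and RPKM, which equals the count divided by gene length and by the table's total to within 0.000496%. RPKM was used only for that check. The number of columns left unused as belonging to other samples was 0.

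Counts were scaled by TMM (edgeR 4.0.16, R 4.3.3) on genes with at least 10 counts over both libraries, with factors of 0.855 and 1.17. Ratios carry exact conditional binomial 95% intervals, levels exact Poisson intervals, and log2 ratios a prior count of 2. Intervals cover counting error only and may be too narrow, because amplified reads can share a molecule. No test across genes was run. For symbols with several rows the row with most counts was used. The calculation was tested on simulated data with few changed genes, balanced up and down, and counting noise alone. That run does not test the choice of scaling for these libraries. Computing used scipy 1.17.1, pandas 2.3.3 and numpy 2.4.6 under Python 3.11.15. DESeq2 1.42.0 supplied alternative size factors.

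The 10 genes and the 20 lists were chosen with earlier results of these data known. Named genes are the 10, a few fixed genes, and up to 4 per list with the largest log2 ratios where the higher library had at least 5 CPM; not all are printed. All 10 symbols matched the RefSeq gene table of ARS-UCD2.0, used for names and overlaps alone.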

Additional observations from a re-analysis of the deposited data

How the results depend on the processing

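No paired analysis was possible because each age has 1 library, and for the same reason no replicate could be left out. With DESeq2 size factors, TMM without mitochondrially encoded and ribosomal protein genes, prior counts of 10 or 0.5, and minimums of 1 or 50 counts, the 10 genes gave 5 higher, 1 lower and 4 within 2-fold and medians between 0.96 and 1.00 (log2). Upper-quartile scaling gave the same calls and a median of 0.87. Plain library totals gave 8 higher, 1 lower and 1 under 2-fold at a median of 1.43, and reference genes 9, 1 and 0 with a median of 1.65. Without TSPAN33, an alternative chosen after seeing the data, the median was 1.10. Relative to DDX4 alone 0 were higher, 9 lower and 1 under 2-fold, and the median was -3.12. The shift of -4.10 in all log2 ratios turned 9 ratios below 1 there, those of the genes called higher (ZBTB16 0.125, SALL4 0.252, LIN28B 0.521, UTF1 0.145 and LHX1 0.433) and of GFRA1 (0.0913), RET (0.0809), UCHL1 (0.0971) and ETV5 (0.105). It also turned every positive list median but those of meiotic and spermatid genes, among them pan germ cell genes (-0.34), B cell markers (-1.53) and proliferation genes (-2.31). With a minimum of 50 counts the red blood cell median was 0.62, the value of the 1 gene left. Depth limits LHX1, LIN28B and UTF1 most, with 13, 14 and 27 counts at 3 months.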

Other observations

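Niche factors other than GDNF were covered by 9 ligand genes. At 9 months 1 was higher, 3 lower and 5 within 2-fold, against 28.0% higher and 22.8% lower of all measured genes. With plain totals 2 were higher and 1 lower, against 36.2% and 14.7%. The median log2 ratio of the 9 was -0.60 (-0.15 on plain totals, 0.07 on reference genes). FGF2, a growth factor for spermatogonia, stood at 28.6 and 14.2 CPM, a ratio of 0.499 [0.446 to 0.557]. CSF1, a ligand from Leydig and myoid cells, stood at 11.4 and 5.20 CPM, a ratio of 0.456 [0.380 to 0.547]. With plain totals FGF2 and CSF1 were within 2-fold, at 0.682 and 0.624. WNT5A, a Sertoli cell ligand, was lower by TMM and with plain totals, with 332 and 108 counts, a ratio of 0.300 [0.239 to 0.374]. CXCL12, the ligand of the spermatogonial receptor CXCR4, stood at 20.3 and 11.6 CPM, a ratio of 0.573 [0.505 to 0.649].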
